A study of Drosophila melanogaster with 6 samples.

Results

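The pair of genes described here is no ocelli (noc, CG4491) and its neighbouring paralogue elbow B (elB, CG4220), 2 of the 9072 genes listed in an RNA-seq series of Drosophila melanogaster embryos. They were chosen by identifier: noc because it was the gene called in the comparison of the study's groups, and elB because it is the paralogue beside it. The water and dsRNA values of both genes are therefore given as a description with no test. All 6 libraries were made from poly(A) RNA of whole Oregon R embryos, a wild-type stock, at the late blastoderm, just before gastrulation. The controls were 3 libraries of embryos injected with water, and the treated group was 3 libraries of embryos injected with double-stranded RNA (dsRNA) against even-skipped (eve) and runt (run), at 1 µg/µl each, here called dsRNA libraries. Embryos of both groups were injected before cells formed and then aged at 18 °C, and each library pooled about 50 of them. Since no label ties a replicate to its own day of injection, errors measure the spread between these pools.

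The series asks which genes are targets of Eve and Runt, DNA-binding proteins that pattern the trunk in stripes. The proteins of noc and elB each carry a C2H2 zinc finger and belong to a small family that also has members in vertebrates and worms. The family works as repressors together with the co-repressor Groucho, and its members share short motifs with the Sp-family zinc-finger proteins, to which the head gap gene product Buttonhead belongs. In Drosophila noc is named for the loss of the ocelli, the simple eyes on top of the head, and also acts in the embryonic head. Together with elB it acts later in the branching of the trachea, in the growth of legs and wings and in the eye.

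The genes lie on the left arm of chromosome 2 and point away from each other. The submitters name the build dm3, so the BDGP6 positions given here are not those of their counting. In BDGP6 noc spans positions 14490859 to 14494019 on the plus strand of 2L, with 2 exon blocks that cover 2859 bp. The gene elB spans 14390628 to 14409549 on the minus strand, with 3 exon blocks that cover 3326 bp. Each has 2 annotated transcripts, and for both the count of other genes with an overlapping exon was 0. The 81309 bp between them hold 3 annotated protein-coding genes and 5 non-coding ones. Reads that aligned to more than 1 place were not assigned to genes, and how much sequence the pair shares at the RNA level was not analysed here.

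The depth was 23226562 to 49349617 gene reads per library. Levels are normalised read counts, the reads of a gene divided by a size factor of the library. Each log2 fold change is the dsRNA mean minus the water mean of log2(normalised count + 1); the added 1 shrinks the change of genes with few reads. As the check of the labels, run was lower in the dsRNA libraries (normalised counts of 2969 ± 683 in the water group and 1877 ± 127 in the dsRNA group, SD, n = 3), and eve was not (2534 ± 734 and 2658 ± 304). Neither passed over all genes (limma adjusted p = 0.999 for each). Water replicate 2 stood apart on the leading principal component (54.7% of the variance), so results are also given without it. Maternal RNAs on a list were higher there than in water replicates 1 and 3 for 12 of 12 measured. The share over all genes was not computed for this or for later counts of genes highest or lowest in that library.

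Transcripts of noc were abundant in every library and higher in each dsRNA library than in any water library. The level was 2386, 2153 and 2511 normalised counts in water replicates 1, 2 and 3. The dsRNA replicates, in the same order, stood at 5677, 6445 and 5742 normalised counts. The groups did not overlap, and the lowest dsRNA library stood 2.26-fold above the highest water library. Within a group the libraries lay close together: the highest was 1.17 times the lowest in water and 1.14 times in dsRNA.

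These levels rested on 1673 to 3156 reads in the water libraries and 4112 to 8328 in the dsRNA libraries. Counting error alone was thus 1.10% to 2.44% (SD) per library, smaller than the variation between libraries of 7.73% in water and 7.15% in dsRNA. The group means were 2350 ± 182 and 5955 ± 426 normalised counts (SD, n = 3 each). The log2 fold change was 1.34 ± 0.09 (SE), a 2.53-fold higher level. Since noc was chosen on these values, the size and its SE describe these 6 libraries and may overstate the change and understate its error. In whole embryos, more cells with the transcript and more transcript per cell cannot be told apart.

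Transcripts of elB were close to the limit of detection. Its reads numbered 5, 0 and 1 in water replicates 1, 2 and 3. The dsRNA replicates, in the same order, had 7, 3 and 2, against at least 23226562 gene reads in each library. In normalised counts this was 3.78, 0 and 0.993 in water and 4.77, 3.19 and 2.79 after dsRNA. The groups overlapped: water replicate 1 was above dsRNA replicates 2 and 3. The 0 reads in water replicate 2 allow up to 3 reads, a level of 0.113 CPM (gene reads rescaled to the same sum in every library).

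The elB data did not settle whether the gene differed between groups. The water libraries had a mean of 1.59 ± 1.96 and the dsRNA libraries of 3.59 ± 1.05 normalised counts (SD, n = 3 each). The log2 fold change of 1.09 ± 0.64 (SE) had a 95% confidence interval of −0.45 to 2.62. From the summed reads, 12 after dsRNA and 6 in water, the ratio of normalised levels was 1.99 with an exact 95% interval of 0.691 to 6.46, which covers counting error only. An increase as large as that of noc and no change at all both lie inside these intervals.

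**Figure D1:**
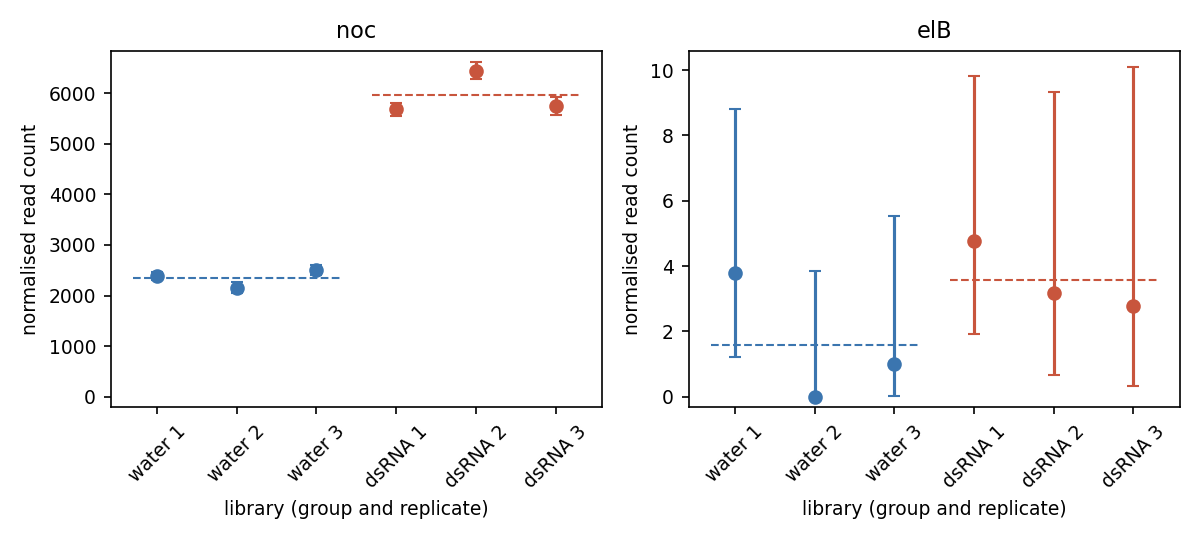
Normalised read counts (vertical axis, linear, a separate scale for each gene) of noc and elB in each library (horizontal axis). Points are libraries and dashed lines are group means. Bars are exact 95% Poisson intervals of the reads. Where there were 0 reads, the bar instead ends at 3 reads, an upper limit only. For noc the 3 dsRNA libraries, at 5677 to 6445, lie above the 3 water libraries, at 2153 to 2511; for elB all libraries are at or under 4.77 and the bars of the groups overlap.

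The paralogues thus differed far more from each other than either did between groups. Per kilobase of exon, noc stood at 822 normalised counts in water and 2083 after dsRNA, and elB at 0.478 and 1.08. By this level noc ranked 2161 and elB 8871 among the 9012 genes with an annotated exon length, counted from the highest. Within libraries the noc level per kilobase was 734-fold that of elB in water replicate 1 and 2942-fold in water replicate 3. In the remaining water library, where elB had no reads, noc was at least 649-fold higher, taking 3 reads for elB in that library. The ratios were 1384, 2348 and 2392 in dsRNA replicates 1, 2 and 3. The ratio was over 1 in 6 of 6 libraries. Since elB contributed 18 reads in all and noc 25853, the single-library ratios carry the counting error of elB.

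Of all reads assigned to the pair, 99.9% were those of noc, so the sum of the pair follows noc alone. The log2 difference between the paralogues (noc minus elB, each as log2 of the normalised count + 1) was 10.11 ± 1.07 over the water libraries and 10.36 ± 0.37 over the dsRNA libraries (SD, n = 3 each). It was thus larger after dsRNA by 0.25 ± 0.65 (SE), within its error. With 8 in place of 1 added to each normalised count the same quantity was 1.05 ± 0.18 (SE), because the larger constant holds elB near a fixed value. These libraries therefore gave no measure of whether the paralogues responded differently.

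In the fit over all 9072 genes, limma called 1 gene, and this was noc, on which the choice of the gene rests. The share of genes called was 0.011%, and nothing further is read from the call. With the replicate number as a block, 0 genes passed in limma (348 at an unadjusted p under 0.05, against 206 without the block). The block cannot move a difference of means in this balanced layout, and the SE of noc was 0.09 with it. The number of genes called was also 0 without any 1 library other than water replicate 2, and without water replicate 2 it was 4: noc, nullo and tsg, which were higher, and the pair-rule gene ftz, which was lower. The log2 fold change of noc itself ranged from 1.28 (without water replicate 2) to 1.39 (without water replicate 3).

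**Figure D2:**
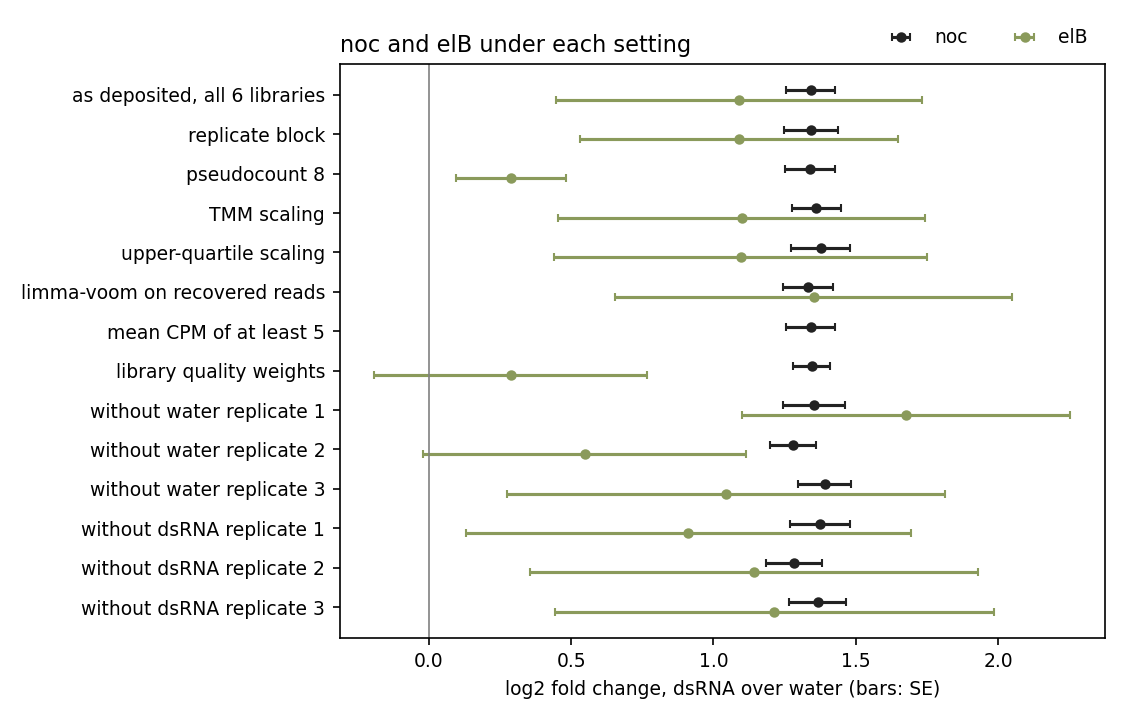
Log2 fold changes of noc and elB, dsRNA over water (horizontal axis), under each setting (vertical axis), with SE as bars, which are narrower than 95% intervals. The noc values lie between 1.28 and 1.39, whereas those of elB run from 0.29 to 1.68 with wide bars; elB has no value where a mean of at least 5 CPM is required.

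The size and the spread of the noc values are those on which the gene was chosen, and their place in the table is given only as a description. Among the 6227 genes with a mean of at least 100 normalised counts, 3 had a higher log2 fold change: btd at 1.41 ± 0.18, Tollo, a Toll-family receptor gene, at 1.40 ± 0.41 and CG5002 at 1.35 ± 0.66 (SE). The SD between libraries of a group was 0.11 for noc on the log2 scale, against a median of 0.14 over the same genes, and 38.2% of them had a smaller SD. For the 3 genes above it this SD ran from 0.27 to 1.02. Without overlap between groups, 2.99% of the listed genes were higher after dsRNA, noc and these 3 among them.

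**Figure D3:**
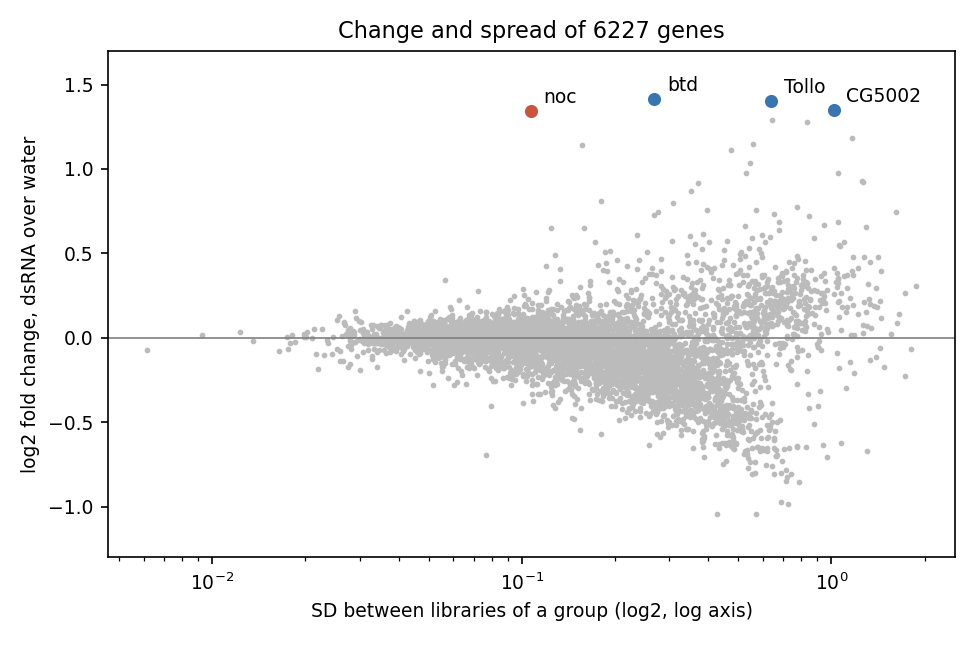
Log2 fold change, dsRNA over water (vertical axis), against the SD between libraries of a group (horizontal axis, log scale), for genes with a mean of at least 100 normalised counts. Each point is a gene; noc has an SD of 0.11, and btd, Tollo and CG5002, which are as high, have SDs of 0.27 to 1.02.

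The genes whose pattern over the 6 libraries was most like that of noc, by the Pearson correlation of log2 values across 6226 other genes with a mean of at least 100, were btd, Clic, tsg, CG15390 and Con. Their r values were 0.97, 0.96, 0.96, 0.95 and 0.95, given as a description, since the libraries fall into the groups on which noc was chosen. Buttonhead (btd), a zinc-finger gene of the Sp family that patterns the head, had levels of 984, 749 and 1056 normalised counts in water replicates 1, 2 and 3. The dsRNA replicates, in the same order, stood at 2941, 2485 and 2011. The ranges did not meet, and the order of the dsRNA libraries differed from that of noc.

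Twisted gastrulation (tsg), whose product binds BMP ligands outside the cell, stood at 1699, 1732 and 1386 normalised counts in water and at 3761, 3660 and 3177 after dsRNA, again without overlap. The other genes on this short list changed little: Clic, a chloride intracellular channel gene, had a log2 fold change of 0.12 ± 0.07, CG15390 of 0.13 ± 0.11 and Con, which encodes a leucine-rich-repeat adhesion protein, of 0.34 ± 0.13 (SE). Of the 5, 0 passed over all genes in limma (adjusted p = 0.363 for btd, 0.103 for tsg and 0.999 for the others). An unadjusted p under 0.05 in limma was found for 3 of them (206 of all 9072 genes). Both btd and tsg passed with library quality weights, and tsg also without water replicate 2 (log2 1.20). The 5 genes were picked for likeness to noc over the same groups, which favours low p-values. Nothing is therefore read from their p-values or calls. By deviations from the group means alone, the correlation with noc was 0.50 for btd, 0.84 for Clic and −0.37 for tsg. It was 0.195 for CG15390 and −0.253 for Con. For elB the same search gave Nop10, Cad87A, ND-B15, RpS6 and CG11885, with r from 0.96 to 0.98 and log2 fold changes between 0.02 and 0.10. With at most 7 reads per library behind elB, nothing is read from this.

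Since noc acts in the embryonic head, it was set beside a list of 20 genes that pattern the head or the ends of the embryo, all of them measured. This list and those below were chosen with earlier results of these data known, so their counts are a description. Some genes stand on several lists. In limma, 0 of 20 passed over all genes, and 0 passed with limma-voom. An unadjusted p under 0.05 in limma was found for 3 of 20 (206 of all 9072 genes). The list median was 0.14 in log2 fold change with 14 of 20 positive, against a median of −0.001 over all genes, of which 49.5% were positive. Without overlap between groups 3 of 20 were higher (2.99% of all genes): btd, the head gap gene ems (985 ± 345 and 2075 ± 517 normalised counts, log2 1.11 ± 0.31) and oc, which encodes the homeodomain protein Orthodenticle, also needed for the ocelli (2258 ± 605 and 4064 ± 772, log2 0.87 ± 0.23). The gap genes hb and gt lay at 0.08 ± 0.09 and 0.27 ± 0.11, and the terminal gene tll at 0.33 ± 0.16 (log2, SE). Lower values were found for cnc (−0.57 ± 0.31) and for the homeotic gene Dfd (−0.67 ± 0.85).

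**Figure D4:**
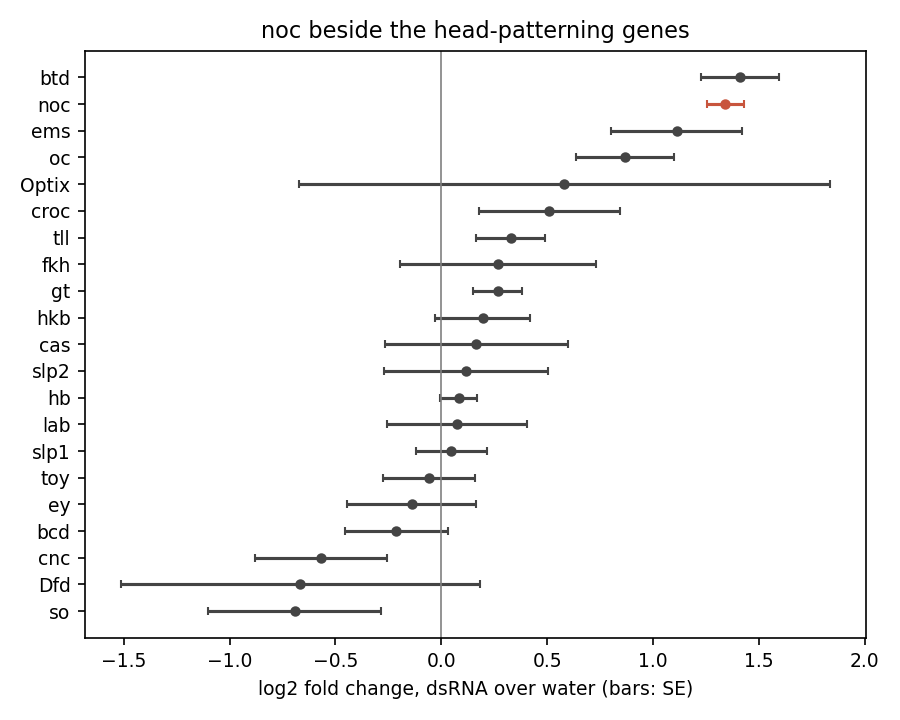
Log2 fold changes, dsRNA over water (horizontal axis), of noc and the 20 genes of the head-patterning list (vertical axis, ordered by value), with SE as bars. The value of noc, 1.34, lies between btd at 1.41 and ems at 1.11, and the list runs down to −0.69 for so.

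Per kilobase of exon, noc was also among the more abundant of these genes. In water 6 of the 20 stood above it, in falling order hb, gt, tll, bcd, hkb and slp1, and the other 14 stood below, the nearest being oc at 448 ± 120 normalised counts per kilobase against 822 ± 63.5 for noc. No range of these 20 genes over the water libraries met that of noc. After dsRNA 3 stood above it: hb at 4790 ± 518, gt at 4269 ± 579 and tll at 2805 ± 600, against 2083 ± 149 for noc (SD, n = 3). The ranges of tll and hkb then met that of noc, so their order relative to noc lies within the spread. In each water library noc stood below slp1 and bcd, and in each dsRNA library above both. After dsRNA slp1 and bcd were at 1390 ± 147 and 1564 ± 364 normalised counts per kilobase. Their own log2 fold changes were 0.05 ± 0.17 and −0.21 ± 0.24 (SE), with overlap between groups. The crossing thus restates the higher level of noc, on which noc was chosen.

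In water replicate 2, the library that lay apart, noc was at 0.879 of its mean in the other water libraries. For 16 of the 20 head-patterning genes this ratio was lower, with a median of 0.624 (a small spread within groups favoured the choice of noc, so nothing is read from this). The ratios of btd, ems and oc were 0.734, 0.515 and 0.613, and that of the maternal RNA bcd was 1.61. Without water replicate 2 the noc log2 fold change was 1.28 ± 0.08 and that of btd 1.26 ± 0.15, whereas ems stood at 0.80 ± 0.20 and oc at 0.63 ± 0.15 (SE). The list median then turned to −0.14, and over all the ways of leaving out 1 library it ran up to 0.29.

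Among 17 measured genes of tracheal development, the process in which noc and elB act together later, 0 passed in limma and 0 with limma-voom. An unadjusted p under 0.05 in limma was found for 2 (206 of all 9072 genes). The median log2 fold change was 0.38, with 15 of 17 positive. The groups did not overlap for 4 of the 17, all higher after dsRNA (2.99% of all genes): the transcription factor genes trh (136 ± 18.4 and 179 ± 22.3 normalised counts), vvl (22.8 ± 21.9 and 131 ± 48.5) and salr (11.6 ± 4.49 and 29.2 ± 7.22), and the FGF receptor gene btl (46.0 ± 12.9 and 62.0 ± 3.71). The parts of the Dpp pathway on the list stood close to 0, with tkv at −0.04 ± 0.13, put at 0.05 ± 0.07, Mad at 0.04 ± 0.08 and dpp at 0.14 ± 0.19 (log2, SE). Water replicate 2 held the lowest water level for 11 of the 17. When it was left out the list median was 0.05, and it was 0.61 without water replicate 3.

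Among 15 genes of appendage development, 0 passed in limma and 2 had an unadjusted p under 0.05 (206 of all 9072 genes). With limma-voom 0 passed. The median was 0.14 with 10 of 15 positive. Dll, which starts limb formation, had normalised counts of 86.0 ± 73.9 in the water group and 54.7 ± 51.8 in the dsRNA group, wg had 356 ± 101 and 335 ± 110, and hth had 2554 ± 1773 and 2353 ± 690. The groups did not overlap for 2 of 15, both higher after dsRNA (2.99% of all genes). These were btd and the signal gene hh (65.9 ± 38.6 and 145 ± 21.3, log2 1.29 ± 0.44). Of these, btd is also on the head-patterning list and is the same gene counted there. Without water replicate 2 the list median turned to −0.03, and without water replicate 3 it was 0.54.

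The co-repressors and zinc-finger relatives were measured in both groups. Groucho (gro), the co-repressor this family works with, stood at 31352 ± 1340 normalised counts in water and 32364 ± 1809 after dsRNA, a log2 fold change of 0.05 ± 0.06. The co-repressor genes CtBP, HDAC1 and Sin3A stood at 0.04 ± 0.05, 0.06 ± 0.06 and −0.16 ± 0.11 (log2, SE). Of the Sp-family genes, btd is given above, Spps stood at 0.30 ± 0.40, and Sp1 was near the limit of detection, with 2.10 ± 0.874 and 4.07 ± 2.58 normalised counts. Of these 7 genes 0 passed in limma over all genes and 1 (btd) had an unadjusted p under 0.05 (206 of all 9072 genes). With limma-voom 0 passed.

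Along the chromosome, no call was made on the measured genes around the pair. Within 100 kb of either gene lie 20 other annotated protein-coding genes, of which 11 were listed. Of these, 9 lie beyond elB and 2, Pburs and Cpr35B, between the members. The 4 annotated beyond noc were not listed. All measured neighbours thus lie on the elB side of noc. The nearest to noc, Cpr35B, has its centre at −66.1 kb from the start of noc. In limma 0 of 11 passed over all genes and 0 had an unadjusted p under 0.05 (206 of all 9072 genes). With limma-voom 0 passed. The median log2 fold change was −0.07 with 5 of 11 positive (−0.14 to 0.11 on leaving out each library), and the groups did not overlap for 1 of 11, ppk, which was higher (2.99% of all genes).

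The neighbours fell into genes with a mean over 200 normalised counts (7 of 11) and genes under 20 (4 of 11). In the first set the mitochondrial transcription termination gene mTTF stood at 0.14 ± 0.09, the vesicle transport gene Rab14 at −0.07 ± 0.10, the mismatch repair gene spel1 at −0.13 ± 0.10 and the glycosyltransferase gene Pgant35A at −0.15 ± 0.11 (log2, SE). Also there, l(2)34Fd stood at 0.06 ± 0.07, CG33090 at −0.47 ± 0.30 and the laminin gene wb at 0.29 ± 0.90. In the second set were Send2, ppk, Pburs and Cpr35B, at means of 2.89 to 8.51 normalised counts. The listed genes nearest to elB, ppk, Pburs and Cpr35B, were thus near the limit of detection like elB itself, with ppk at 5.80 ± 1.00 and 11.2 ± 4.03, Pburs at 2.52 ± 2.40 and 3.26 ± 0.865 and Cpr35B at 7.64 ± 2.35 and 7.71 ± 4.92 normalised counts in water and after dsRNA.

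**Figure D5:**
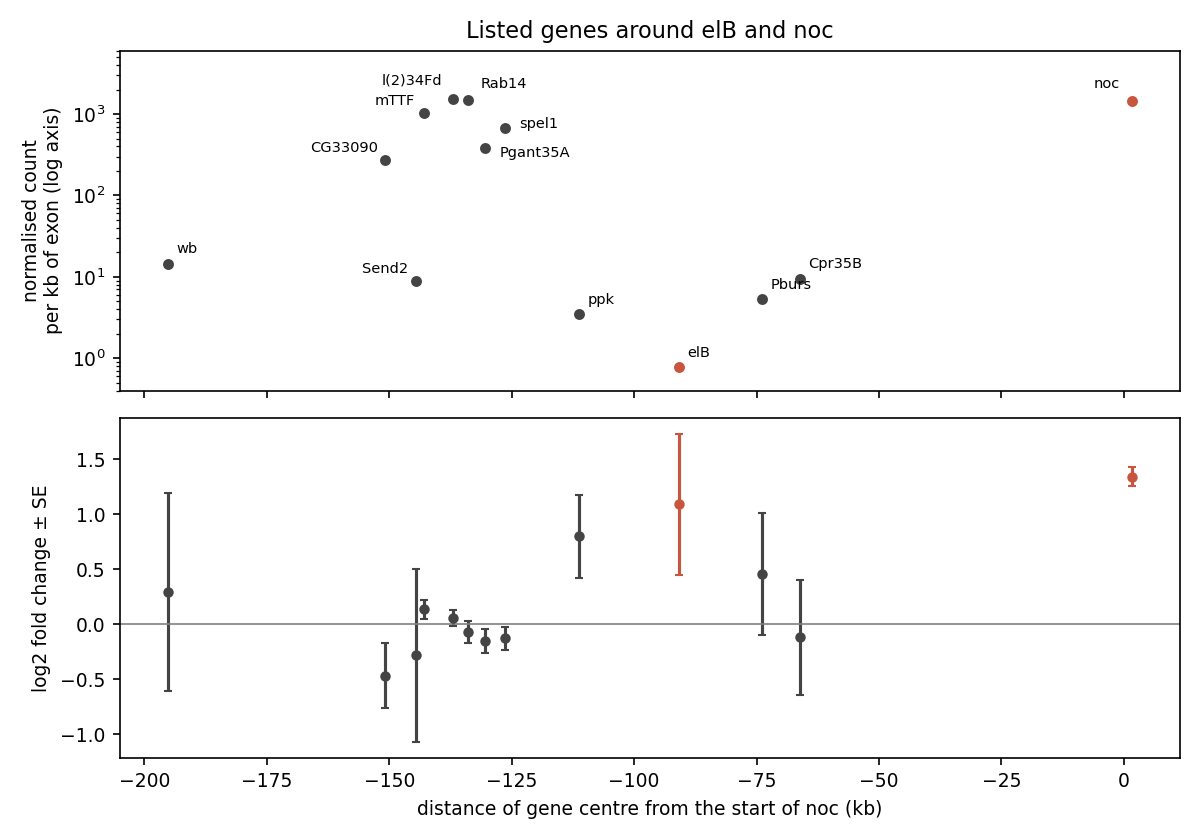
Listed genes around elB and noc by distance of the gene centre from the start of noc (horizontal axis, kb): mean level in normalised counts per kilobase of exon (top, log scale) and log2 fold change with SE (bottom). The members are in red; noc stands at 1.34, while the abundant neighbours lie between −0.47 and 0.29.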

How the data were processed

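The deposited table gave, for 6 libraries, a normalised signal per gene. Per the submitters' processing notes, the tools were HTSeq, DESeq, Bowtie2 and TopHat2 (version 2.0.9) and the build was dm3. The annotation and strand setting were not given in the sources used here. Each value the authors deposited minus 1 was a whole multiple of a step of its library (100% of values within 0.01 read), so the values are reads divided by a size factor, with 1 added. Reads were recovered by dividing out the step. All 9072 genes tested had reads in at least 4 libraries, and both members were listed. The rows for non-unique (12.4% to 14.8% of reads), ambiguous (0.72% to 0.75%) and unassigned reads (4.32% to 4.91%), and CG00000, which names no gene (0.0238% to 0.0321%), were left out. There were 0 columns of other samples.

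Log2 of the deposited values was fitted with limma 3.58.1 (trend, robust) in R 4.3.3, adjusted by Benjamini-Hochberg over all genes at 0.05. The fit was also run on simulated counts with the same dispersion for every gene. In these libraries the spread differs between genes, so that run checks the code only. Symbols came from a RefSeq table (9026 genes matched), and positions and exon lengths from BDGP6, Ensembl release 115. The members and lists were chosen with earlier results of these data known. Named were the members, eve and run, every listed gene within 100 kb and the 5 genes most correlated with each member. From the lists, genes were picked with their values in view, for a large change, no overlap between groups or a list's range. The genes with the largest change of a list were not always among them.

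Groups and replicate numbers came from the titles. Deviations of same-numbered libraries from their group means correlated at 0.24, 0.37 and 0.22 (other pairs −0.38 to 0.11). These values come from the data alone and do not establish that the numbers pair the libraries. The main fit ignored any such pairing, and the fit with the block took it into account. Within groups, chi-square per degree of freedom was 16.5 to 87.7, so no library of a group repeated another of that group. Alternatives were the block, another pseudocount, other scalings, limma-voom, a filter, quality weights and leaving out each library. Intervals on reads cover counting error only.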

Additional observations from a re-analysis of the deposited data

How the results depend on the processing

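With the replicate number as a block the count of genes called was 0, and with library quality weights it was 5 (noc, btd, nullo, tsg and, lower, Taf2); it was 0 to 4 on leaving out each library, and 1 with another pseudocount, TMM or upper-quartile scaling, limma-voom and a minimum mean of 5 CPM. The block moved no other call. The log2 fold change of noc was 1.28 to 1.39 on leaving out each library and 1.33 to 1.38 under the other settings. That of elB was 0.55 to 1.68 on leaving out each library, 0.29 with a pseudocount of 8 and 0.29 with quality weights, and elB has no value where a mean CPM of 5 is required. The difference between the paralogues was 1.05 with a pseudocount of 8 and −0.32 to 0.73 on leaving out each library. Of 657 values for other genes checked and list medians, 647 moved by less than the spread between libraries. Neither the block nor leaving out 1 of 3 libraries can move the value of a gene by that much. The 647 are therefore no measure of robustness. The sign changed for 27 values, in 16 of 51 results, none of them called. The edgeR and DESeq2 alternatives were not run, and limma-voom was the 1 fit made on recovered reads. Depth limits elB, for which a library holds 0 to 7 reads; for noc the spread between 3 pools per group is the limit.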

Other observations

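Among the lists not described above, 7 of 7 measured genes of cellularisation had a positive log2 fold change (median 0.23). The early zygotic gene nullo, which stabilises the new cell membranes, stood at 0.81 ± 0.12 and halo, which acts in lipid-droplet transport, at 0.24 ± 0.23 (log2, SE). Of 8 pole-cell genes 1 was positive (median −0.15), with ovo at −0.45 ± 0.30 and vas at −0.25 ± 0.30. Of 12 maternal RNAs 4 were positive (median −0.18). In limma 0 of these genes passed over all genes, and with limma-voom 0 passed. At an unadjusted p under 0.05 in limma were 1 of 7, 0 of 8 and 1 of 12 (206 of all 9072 genes). Water replicate 2 held the highest water level for 7 of the 8 pole-cell genes. Left out, it gave medians of 0.09, 0.001 and −0.02 for the cellularisation, pole-cell and maternal lists.

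Of 22 measured genes of later embryonic patterning, 14 were positive (median 0.14), and for 18 of 22 water replicate 2 was the lowest water library. Without it the median turned to −0.24. The signal gene hh, also on the appendage list, was at 1.29 ± 0.44 and the muscle gene Mef2 at −0.80 ± 0.49 (log2, SE). In limma 0 passed over all genes and 1 of 22 had an unadjusted p under 0.05 (206 of all 9072 genes). With limma-voom 0 passed.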
